A study of Mus musculus with 48 samples.

Results

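Qpctl, the gene deleted in the knockout mice of the series, was described together with 7 neighbours on mouse chromosome 7, namely Fbxo46, Snrpd2, Gipr, Six5, Dmpk, Dmwd and Eml2. The 8 genes were picked by symbol, and all 8 were found among the 55486 genes of the deposited count table. They were picked with earlier results of the same data known, among them the low adjusted p of Fbxo46 in the authors' tumour comparison and the question whether Qpctl and Fbxo46 counts split the libraries of a tissue. That comparison and the spread of Fbxo46 within tissues are therefore given as descriptions.

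Bulk RNA was sequenced from 48 samples, 24 from mice labelled homozygous QPCTL-KO and 24 from wild-type littermates, all of a strain labelled C57/Bl6JR. KO mice that bore tumours had received QPCTL-KO B16F10 cells and wild-type littermates QPCTL-WT B16F10 cells, so host and tumour genotype changed together. B16F10 is a mouse melanoma line. Tumour cells sorted as live and CD45-negative, taken at day 14 after inoculation, gave 6 KO and 6 WT samples, and lymph nodes of tumour-bearing animals at day 14 gave another 12. Bone marrow and spleen of uninoculated mice aged 10 to 15 weeks gave 4 KO and 4 WT samples each, and their lymph nodes gave 8 samples. Headers of the counts name the tissue and number the libraries without giving the genotype, so each tissue below holds KO and WT libraries mixed, and the 20 lymph node libraries also mix baseline and tumour-bearing animals. KO was not compared with WT, nor tumour-bearing with baseline lymph node, from these counts.

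QPCTL is a Golgi enzyme that turns an N-terminal glutamine or glutamate of a protein into pyroglutamate. On CD47, a "do not eat me" signal of tumour and blood cells, that change is needed for tight binding of SIRP alpha on macrophages, and several monocyte-attracting chemokines carry the same change. Fbxo46 encodes an F-box protein, the part of an SCF ubiquitin ligase that picks substrates. Snrpd2 encodes an Sm protein of the spliceosome core, Eml2 a microtubule-associated protein, Dmwd a WD-repeat protein, Dmpk the kinase whose human gene carries the repeat expansion of myotonic dystrophy, Six5 a homeobox factor and Gipr the receptor of an incretin hormone.

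In GENCODE M21 on GRCm38 the 8 genes lie on chromosome 7 between 19076227 and 19206482. Qpctl occupies 19139702 to 19149291 on the minus strand, and Fbxo46 occupies 19119859 to 19140172 on the plus strand. The 2 genes meet tail to tail and their exons share 471 bases, from 19139702 to 19140172, which is 10.9% of the exonic bases of Qpctl and 9.54% of those of Fbxo46. None of the other 6 members shares exonic bases with a coding gene on the opposite strand. On its other side Qpctl faces Snrpd2 (19149722 to 19153542, plus strand) head to head, with 430 bases between their starts. Gipr (19156061 to 19166127, minus strand) and Eml2 (19176421 to 19206482, plus strand) follow beyond Snrpd2, and Dmwd (19076227 to 19082776), Dmpk (19083849 to 19093821) and Six5 (19094594 to 19098549) lie on the plus strand beyond Fbxo46.

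**Figure D1:**
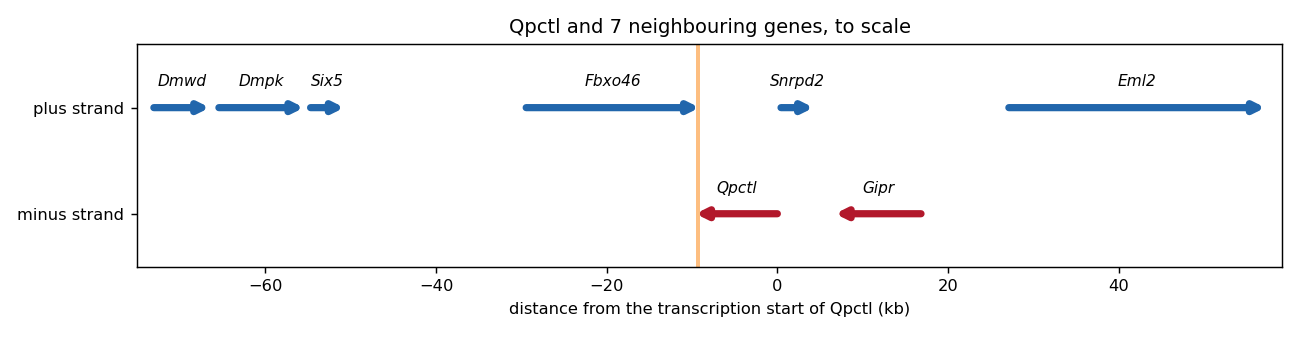
Positions of Qpctl and 7 neighbours in kb from the transcription start of Qpctl, to scale, with arrows pointing in the direction of transcription (plus strand above, minus strand below). The shaded stripe marks the 471 exonic bases that Fbxo46 and Qpctl share at their ends.

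The ends of the transcripts at this junction are shown because they set which reads can fall on both genes. Each line gives the last 30 bases of a GENCODE M21 transcript, 5′ to 3′ on its own strand, with capitals marking the polyadenylation signal letters AATAAA.
Fbxo46-201, chr7:19140143-19140172, plus strand: taacactctcacaaaacacaactgcacatg
Fbxo46-202, chr7:19137783-19137812, plus strand: ctcattaAATAAAaaaaaagttttcttctg
Qpctl-201, chr7:19139702-19139731, minus strand: aaccctgcttcaaaaagctaaaacaaaacc
Fbxo46-201 runs into the shared stretch, whereas Fbxo46-202 ends 1889 bases before the 3′ end of Qpctl. AATAAA was found in the last 30 bases of Fbxo46-202 and in neither of the other windows, and 35.5% of 58797 coding transcripts hold it there. The promoter side is shown for the head-to-head pair. The part of the RefSeq promoter window of Snrpd2 (GRCm38.p6) that lies between the starts of Qpctl and Snrpd2 covers 134 bases at chr7:19149588-19149721, given on the plus strand with capitals marking CG.
Snrpd2: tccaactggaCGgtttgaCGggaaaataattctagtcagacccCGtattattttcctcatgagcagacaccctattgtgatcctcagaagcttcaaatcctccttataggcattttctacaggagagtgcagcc
It holds 3 CG, against a median of 2 over 32851 promoter windows cut to their first 134 bases. Its GC content is 44.8%, against a median of 50.7%. The Snrpd2 piece ends at the GENCODE start of that gene. The first bases of other windows may lie farther from a start, so these medians and the shares below are not matched for position. The letters of 3 core promoter boxes were searched on both strands. The GC box, GGGCGG, had 0 matches here and is held by 14.5% of the windows of this length. The CCAAT box, searched by the letters of its name, had 0 matches and is held by 18.0% of them. The TATA box, TATAAA, also had 0 matches and is held by 6.66%.

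The libraries are shallow in the deposited table. Totals ran from 54117 to 637985 counts (median 302136), whereas the labels speak of 18 M reads for a sample on average. The shallowest library was a tumour one, and the next tumour library held 181672 counts. Between 61.2% and 83.8% of a library's counts lay in the 9.01% of genes that share at least 50 exonic bases with a coding gene on the other strand. Per kb of exon, mt-Nd6, the mitochondrial coding gene on the strand opposite to the other 12, had 14804 CPM (counts scaled to a library total of 1000000) in tumour cells, 21972 in bone marrow, 29246 in spleen and 58614 in lymph node, against medians of 109, 124, 192 and 277 CPM per kb over those 12 genes. The kit marks strand, and the sources used here give no strand setting for the counting. Counts under any gene name below, those of members without an annotated overlap included, can therefore hold reads of the opposite strand, and those of Fbxo46 and Qpctl can hold reads of each other. Levels below are levels of the counts under each name, and the part of strand in them was not tested. By median, the lists of melanoma, neutrophil precursor, splenic stroma and lymph node stroma markers were highest under their own label, with some signal elsewhere. All 7 melanoma markers were counted in tumour cells, with a summed level of 1848 to 6343 CPM, while Ptprc, which encodes CD45, was at 0 there. The same 7 markers summed to a median of 86.1 CPM in bone marrow, 215 in spleen and 268 in lymph node, with Tyr, Dct and Sox10 at 0 in bone marrow and spleen. The 3 fibroblast markers summed to 11.01 to 950.1 CPM in tumour cells, with a median of 44.4. The 7 neutrophil precursor markers summed to 4921 to 12622 CPM in bone marrow, Tlx1 and Nkx2-5 were counted only in spleen among these 4 tissues, and the 3 lymph node stroma markers summed to a median of 65.8 CPM in lymph node with the lowest library at 0.

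Counts under the name Qpctl were found in all 48 libraries, including whichever 24 are KO, at 1 to 19 counts per library. In tumour cells the lowest, median and highest libraries had 5.71, 13.5 and 27.5 CPM. In bone marrow they had 10.8, 21.4 and 29.8 CPM, in spleen 9.12, 24.8 and 48.3 CPM, and in lymph node 7.35, 14.3 and 32.2 CPM. The ranges of the 4 tissues overlap, and no library lacked counts under this name. Such counts can hold reads of the opposite strand and of Fbxo46, so they do not establish Qpctl RNA in a KO library. The mean was 28.2 ± 15.5 CPM in spleen (SD, n = 8), 21.02 ± 7.002 in bone marrow (n = 8), 17.1 ± 7.83 in lymph node (n = 20) and 14.1 ± 6.93 in tumour cells (n = 12). Neighbours in that order differed by less than the larger of their SDs.

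Fbxo46 had 1519 counts in all and Qpctl 301. Its lowest, median and highest tumour libraries had 4.93, 61.1 and 131 CPM. The values were 79.2, 117 and 161 CPM in bone marrow, 48.3, 103 and 166 CPM in spleen, and 39.7, 86.1 and 156 CPM in lymph node. Tumour libraries alone went below 39.7 CPM, and 5 of the 12 tumour libraries were above 99 CPM, inside the range of every other tissue. The mean was 117 ± 31.3 CPM in bone marrow, 104 ± 46.8 in spleen, 93.9 ± 42.4 in lymph node and 66.4 ± 46.05 in tumour cells (SD, n = 8, 8, 20 and 12). Here too neighbours in the order differed by less than the larger of their SDs. Per kb of exon, Fbxo46 was the highest of the 8 genes in each tissue, for example 13.4 ± 9.33 CPM per kb in tumour cells against 3.28 ± 1.61 for Qpctl.

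**Figure D2:**
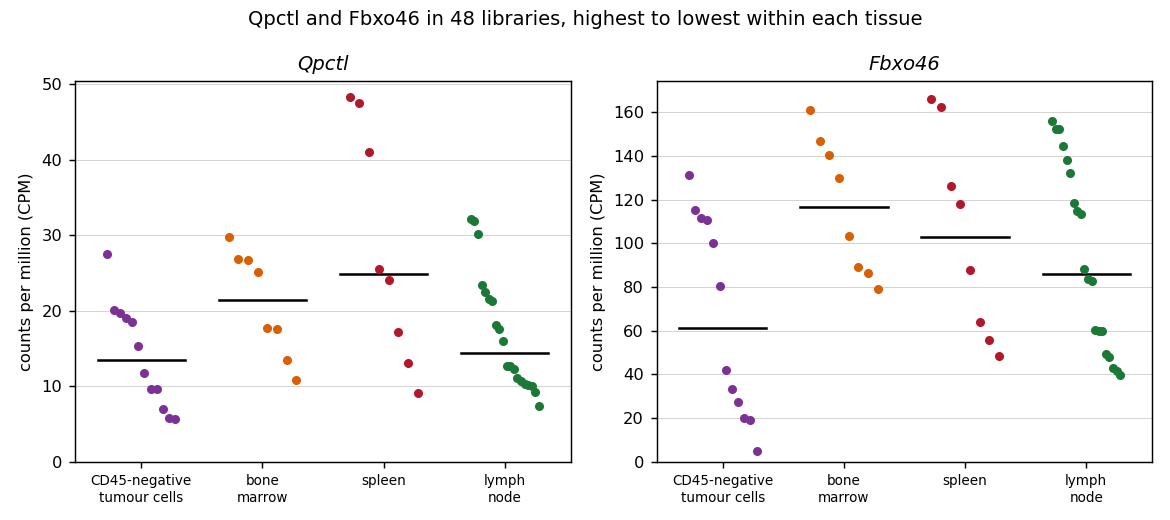
CPM of Qpctl (left) and Fbxo46 (right) in each of 48 libraries, sorted from highest to lowest within a tissue, with the tissue median as a bar. Fbxo46 in tumour cells spans 4.93 to 131 CPM, while the Qpctl values of the 4 tissues overlap.

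Tissues were compared with edgeR's quasi-likelihood test on all 48 libraries and Benjamini-Hochberg adjustment over all genes tested. Replicates are the separate samples of the titles. The default filter on low counts left 5504 genes and, of the 8 members, only Fbxo46. The other 7 members come from the same test without that filter, on 26748 genes, and both are given for Fbxo46. Every gene with a count enters the test without the filter, so shares called there are not matched to the members for depth. The 3 comparisons against lymph node share its libraries. Those libraries mix baseline and tumour-bearing animals, while bone marrow and spleen came from uninoculated mice only. Where bone marrow or spleen is set against lymph node, organ and tumour state therefore cannot be told apart. In bulk tissue, fewer cells of a type and less RNA per cell cannot be told apart. The tumour cells were sorted as CD45-negative, so their comparison sets sorted cells against lymph node tissue.

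Fbxo46 was lower in tumour cells than in lymph node by a log2 fold change of -0.53 (SE 0.27), with an adjusted p of 0.0716, which misses the threshold of 0.05. Without the filter its log2 fold change was -0.80 (SE 0.24, adjusted p = 0.00525), and it also passed with RLE scaling (-0.71, adjusted p = 0.0196), with DESeq2 (-0.73, adjusted p = 0.0118), and without the shallowest tumour library (-0.72, adjusted p = 0.0184). It missed the threshold again in a fit of the 2 tissues alone (adjusted p = 0.0660), so the call for Fbxo46 depends on the setting, with adjusted p from 0.00469 to 0.0716 over all those run. Qpctl had a log2 fold change of -0.63 (SE 0.30) in the same comparison, with an adjusted p of 0.0903. With the filter set to a minimum count of 5 or 2 instead of 10, settings tried after the data were seen, the adjusted p of Qpctl was 0.0457 and 0.0430. Over all settings run it lay between 0.0430 and 0.134, and only those at 5 and 2 passed. The other tissue differences of both genes did not pass. Qpctl gave 0.59 (SE 0.28, adjusted p = 0.172) in spleen minus lymph node, 0.17 (SE 0.28, adjusted p = 0.689) in bone marrow minus lymph node and -0.42 (SE 0.32, adjusted p = 0.427) in bone marrow minus spleen. Fbxo46 stayed between 0.07 and 0.24 in log2 in these 3 comparisons with the filter, with SEs of 0.28 to 0.34.

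Without the filter, 4 of the 8 members were higher and 1 lower in tumour cells than in lymph node, where 36.7% of all genes tested were called (15.1% higher and 21.7% lower). Of the 5504 genes that passed the filter, 75.3% were called, so no excess of members is read from these counts. The 1 lower member was Fbxo46. The median log2 fold change over the 8 members was 0.93, beside -0.19 over all genes without the filter and 0.09 with it. Over all genes tested within 300 kb of Qpctl it was 0.01 without the filter. Several members rest on few counts, so no shift of the locus is read from these medians. Snrpd2, the spliceosome gene next to the start of Qpctl, had a lowest, median and highest value of 0, 18.8 and 44.9 CPM in tumour cells and 0, 11.8 and 28.1 CPM in lymph node. The ranges overlap, and its log2 fold change was 0.76 (SE 0.30, adjusted p = 0.0352). Eml2 had 0, 13.1 and 41.7 CPM in tumour cells and 0, 3.02 and 15.6 CPM in lymph node, where 8 of 20 libraries were at 0. Its log2 fold change was 1.68 (SE 0.43, adjusted p = 7.6e-04). Dmwd had 0, 16.3 and 23.8 CPM in tumour cells, against 0, 5.85 and 14.2 CPM in lymph node. All but 3 of the 12 tumour libraries were at 13 CPM or above, and the log2 fold change was 1.20 (SE 0.34, adjusted p = 0.00302). Gipr rests on few reads, with 22 counts over 12 tumour libraries and 7 over 20 lymph node libraries. It was at 0 in 3 tumour and 15 lymph node libraries, and its log2 fold change was 1.98 (SE 0.54, adjusted p = 0.00188). The leukocyte markers differ beside these values, at a summed 0 to 3.35 CPM in tumour cells and 100 to 824 CPM in lymph node. Their part in the differences was not tested.

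Dmpk, the kinase gene, and Six5 next to it did not pass in that comparison. Dmpk had 8.66, 23.4 and 73.9 CPM in the lowest, median and highest tumour libraries and 0, 13.9 and 23.3 CPM in lymph node, with a log2 fold change of 0.56 (SE 0.28, adjusted p = 0.119, 0.0460 with DESeq2, and up to 0.170 over all settings run). Its 2 highest tumour libraries, at 73.9 and 55.0 CPM, stand above the next one at 34.5 CPM, and the 73.9 CPM rest on 4 counts. Six5 had 10 counts over all tumour libraries and 6 over all lymph node libraries (log2 fold change 1.10, SE 0.57, adjusted p = 0.149), too few to tell a difference at this depth.

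**Figure D3:**
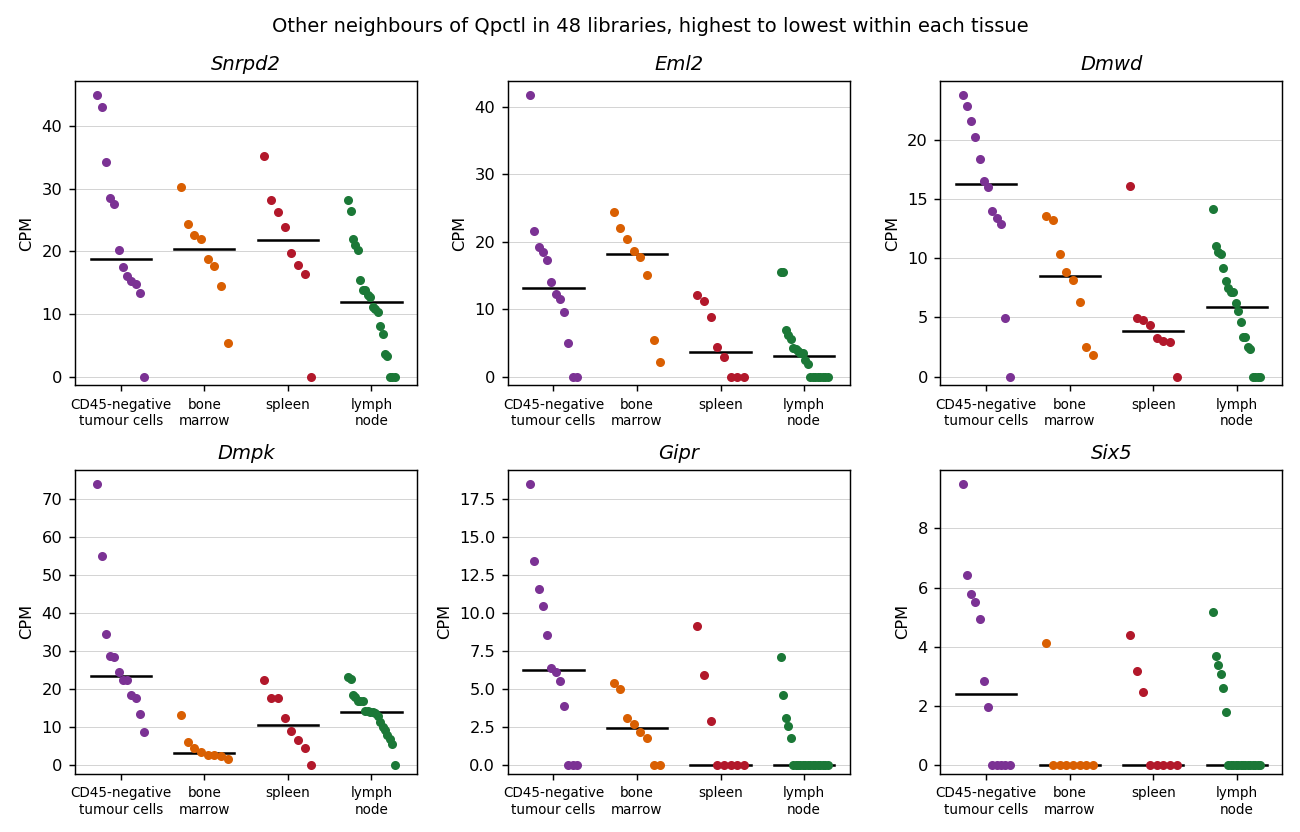
CPM of the 6 other neighbours in each of 48 libraries, sorted from highest to lowest within a tissue, with the tissue median as a bar (each panel has its own axis). Eml2 and Dmpk are ordered differently across tissues, with median values in bone marrow of 18.2 and 3.13 CPM.

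Eml2 and Dmpk went opposite ways in bone marrow, at low counts. Eml2 had 55 counts over all bone marrow libraries, 15 over spleen and 22 over lymph node. Dmpk had 14, 35 and 86 counts in the same tissues. Without the filter, 1 member was higher and 1 lower in bone marrow than in lymph node, where 31.7% of all genes were called (14.6% higher and 17.1% lower). No excess of members is read from these shares, nor from those against spleen below. Eml2 had 2.22, 18.2 and 24.3 CPM in the lowest, median and highest bone marrow libraries, and 6 of the 8 libraries were at 15.1 CPM or more. Its log2 fold change against lymph node was 1.86 (SE 0.44, adjusted p = 3.3e-04). Dmpk had 1.57, 3.13 and 13.2 CPM in bone marrow, where 7 of 8 libraries were at 6.20 CPM or less. Its log2 fold change against lymph node was -1.84 (SE 0.41, adjusted p = 1.3e-04). The same 2 genes were the only members called in bone marrow minus spleen, where 15.3% of all genes were called (6.22% higher and 9.06% lower). In spleen Eml2 had 0, 3.68 and 12.1 CPM and Dmpk 0, 10.6 and 22.4 CPM. The log2 fold change of bone marrow over spleen was 1.44 for Eml2 (SE 0.52, adjusted p = 0.0443) and -1.53 for Dmpk (SE 0.47, adjusted p = 0.0148). The call for Eml2 was lost with DESeq2 (adjusted p = 0.0576) and without the shallowest tumour library (adjusted p = 0.0508), and the adjusted p ranged from 0.0169 to 0.0576 over all settings run. The cell type markers also differ between these tissues. Neutrophil precursor markers summed to 4921 to 12622 CPM in bone marrow, 4.56 to 744 CPM in spleen and 0 to 14.3 CPM in lymph node. The medians of the erythroid markers were 102 CPM in bone marrow, 876 in spleen and 11.5 in lymph node. Those of the B cell markers were 98.1, 534 and 229 CPM in the same tissues, and those of the spleen red pulp markers 34.4, 165 and 46.6 CPM. The T cell markers had medians of 11.7, 56.0 and 63.2 CPM. The part of these cell types in the differences of Eml2 and Dmpk was not tested.

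Between spleen and lymph node 0 of the 8 members passed in edgeR without the filter, where 13.2% of all genes were called (6.96% higher and 6.26% lower). With DESeq2, 0 of the 7 with an adjusted p passed, with Fbxo46 taken from the fit with the filter and the others without it. At an unadjusted edgeR p under 0.05 without the filter there were 2, Qpctl (p = 0.0391) and Snrpd2 (p = 0.0435). Snrpd2 had 0, 21.8 and 35.2 CPM in the lowest, median and highest spleen libraries, and its log2 fold change was 0.68 (SE 0.33, adjusted p = 0.186).

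**Figure D4:**
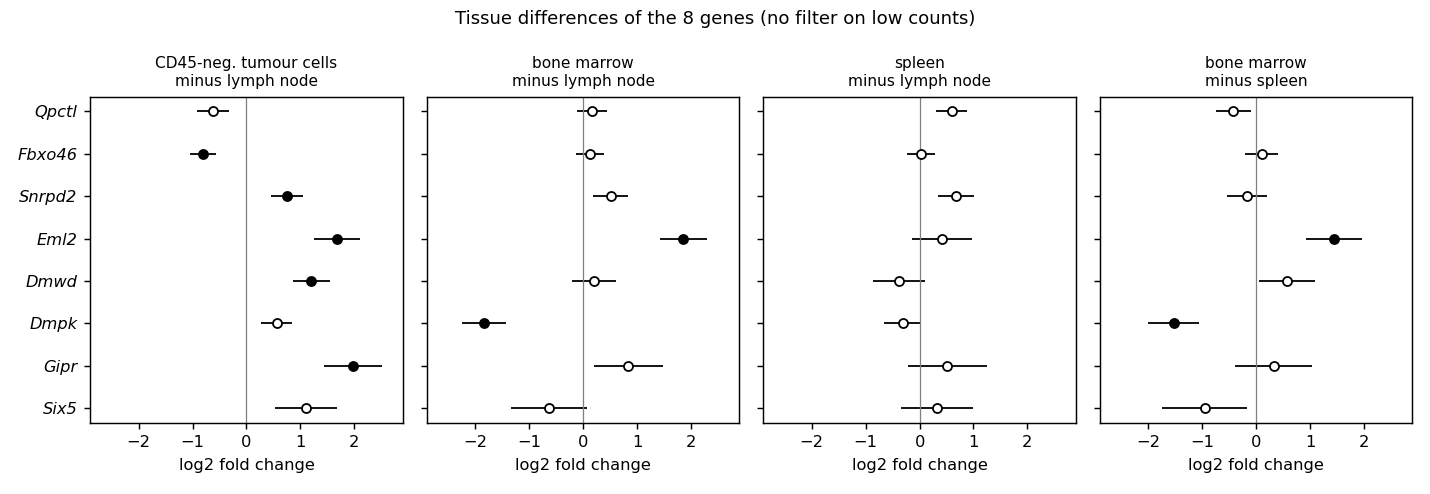
Log2 fold change ± SE of the 8 genes in 4 tissue comparisons, from edgeR without the filter on low counts (filled, adjusted p below 0.05; open, not). The filled point of Fbxo46 in the left panel is at -0.80, and with the filter its adjusted p is 0.0716.

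The spread of Fbxo46 within a tissue, which the choice of the genes drew on, is given as a description over libraries that mix genotypes. The Pearson dispersion of its counts about the tissue mean, a scale on which counting error alone gives 1 and most genes lie above 1, was 8.21 in tumour cells, 3.16 in bone marrow, 6.08 in spleen and 5.63 in lymph node. The median over the 5504 genes tested was 1.598, 1.73, 2.48 and 2.44 in the same tissues. Of these genes, 96.0% had a lower dispersion than Fbxo46 in tumour cells, 76.4% in bone marrow, 78.3% in spleen and 83.9% in lymph node. The same relative spread gives a larger dispersion at more counts, and these shares are not matched for depth. By the SD of log2 CPM the shares were 98.5%, 38.99%, 54.1% and 83.8%. Qpctl stayed near counting error in tumour cells (0.918), bone marrow (0.972) and lymph node (1.01), and had a dispersion of 2.45 in spleen. At a median of 3.5 to 9 Qpctl counts per library, a change of moderate size in some libraries could not be detected at this depth.

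The likeness of Qpctl and Fbxo46 within tissues was low. After centring log2 CPM on the tissue mean, their Spearman correlation over the 48 libraries was -0.08, and 62.3% of the genes tested correlated more positively with Qpctl. The values of a library share its depth and strand composition, and such a weak correlation of sparse counts is not a finding. Dmpk had the highest value with Qpctl among the members, 0.30, and Eml2 the highest with Fbxo46, 0.26. The 5 genes most like Qpctl by this measure were Idua (0.50), Gm15996 (0.46), Hyi (0.44), Bysl (0.44) and Gm47956 (0.44), and those least like it included Dlgap4 (-0.61), Tsc22d3 (-0.55), Dnajc21 (-0.50) and Cpe (-0.49). For Fbxo46 the highest were Arhgef12 (0.53), Gyg (0.48), Ist1 (0.46), Map11 (0.46) and Map3k3 (0.46). The lowest were Gm10138 (-0.65), Gm42501 (-0.63), Mfsd11 (-0.63), Tmem116 (-0.61) and 4933408J17Rik (-0.60). These names are the ends of 5504 correlations for Qpctl and 5503 for Fbxo46, given as a description with no test. By Pearson correlation the 5 highest kept only Idua and Hyi for Qpctl, and Arhgef12 and Map3k3 for Fbxo46.

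The wider neighbourhood held 45 genes within 300 kb of the start of Qpctl, of which 14 passed the filter. Of these 14, 3 were higher and 3 lower in tumour cells than in lymph node, where 75.3% of the 5504 genes were called (39.6% higher and 35.6% lower). In bone marrow 5 were higher and 5 lower than in lymph node, where 66.9% of all genes were called (36.5% higher and 30.4% lower). In spleen 4 were higher and 3 lower than in lymph node, where 43.5% were called (23.2% higher and 20.3% lower). In bone marrow 4 were higher and 4 lower than in spleen, where 39.3% were called (19.4% higher and 19.9% lower). Some of these genes share exonic bases with a coding gene on the other strand, so reads there cannot be told apart from those of that gene. The shared bases were 1053 in Gm10676, 1025 in Gm26852, 744 in Klc3, 471 in Fbxo46, 451 in A930016O22Rik, 126 in Mypopos and 106 each in Ercc1 and Cd3eap. Mypop (18991245 to 19001766, plus strand) lies across from Gm10676 (18989554 to 18992774) and Mypopos (18993234 to 19001222), both on the minus strand. Counts under the name Mypop can therefore hold reads of these 2 genes, and theirs can hold reads of Mypop. Among those that changed most, Pglyrp1, which encodes a peptidoglycan-binding protein of neutrophil granules, averaged 199 ± 51.1 CPM in bone marrow and 6.99 ± 4.78 in spleen (SD, n = 8 each), with a log2 fold change of 4.96 (SE 0.38, adjusted p = 2.7e-16). Mypop averaged 7.95 ± 4.87 CPM in tumour cells (n = 12) and 111 ± 27.6 in lymph node (n = 20), with a log2 fold change of -3.70 (SE 0.25, adjusted p = 1.3e-19). Mypopos, annotated as an antisense gene, averaged 0.454 ± 0.852 CPM in bone marrow and 11.8 ± 10.3 in spleen (log2 fold change -3.79, SE 0.71, adjusted p = 1.5e-05). Gm10676 was higher in tumour cells than in lymph node, at 159 ± 36.02 CPM against 31.5 ± 11.3 CPM (log2 fold change 2.32, SE 0.19, adjusted p = 4.2e-16). Vasp, which encodes an actin regulator, averaged 121 ± 50.2 CPM in spleen and 62.9 ± 30.2 in lymph node (log2 fold change 0.91, SE 0.19, adjusted p = 1.2e-04). A930016O22Rik had the largest fitted changes against lymph node, but its lymph node libraries had a median of 6.02 and a maximum of 16737 CPM, against medians of 14.2 CPM in tumour cells, 4.87 in bone marrow and 0 in spleen, so single libraries carry them and no fold change is given.

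The authors' deposited table compares CD45-negative tumour cells and gives 1 log2 fold change per gene, without stating which group is on top. The libraries behind it are not stated. In that table Fbxo46 had a log2 fold change of -1.92 (authors' adjusted p = 1.47e-05). It was the only 1 of the 8 members called by the authors, where 0.644% of 11340 genes were called and 0.317% with a negative sign. Since Fbxo46 was picked with that value known, nothing is read from it. In the authors' deposited table Qpctl had 0.69 (adjusted p = 0.494), Gipr 0.75, Six5 0.86 and Dmpk 0.35. The authors' deposited table lists Eml2 at -1.13 (p = 0.0286, adjusted p = 0.243), Snrpd2 at -0.51 and Dmwd at -0.10. Signs were 4 above and 4 below 0 among the members, whose median was 0.13 in the authors' deposited table, beside -0.14 over all genes. Of the 45 genes within 300 kb, the authors' deposited table holds 28, of which 1 was called and 15 were above 0.

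**Figure D5:**
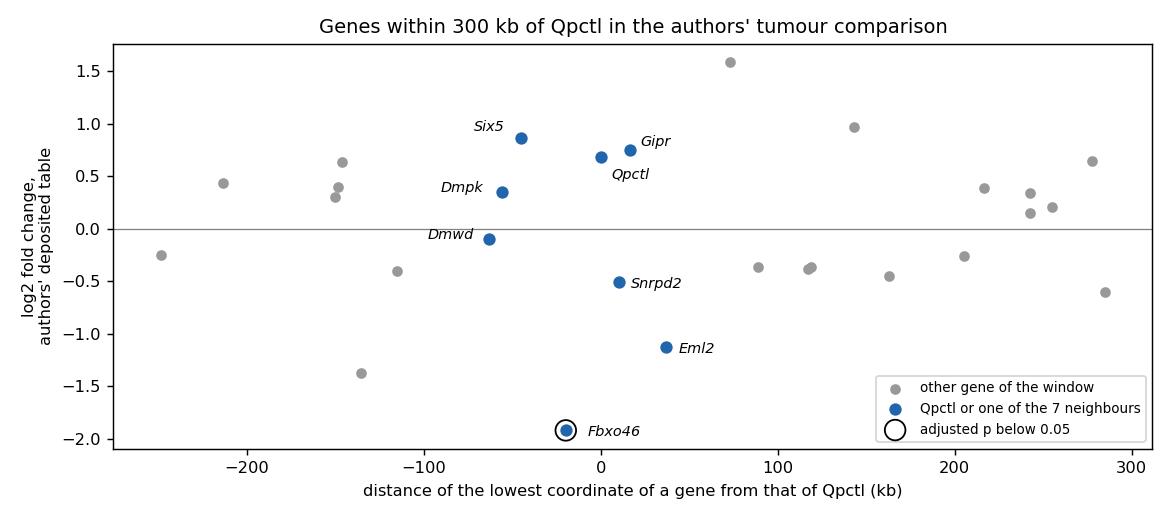
Log2 fold change in the authors' deposited tumour table for 28 genes within 300 kb of Qpctl, by the distance in kb between the lowest coordinate of a gene and that of Qpctl. Fbxo46, at -1.92, is the only gene ringed for an adjusted p below 0.05, and Qpctl is at 0.69 (the direction of the comparison is not stated).

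Genes of the pyroglutamate pathway were also looked at, as a list of 8: the secreted paralogue Qpct, the substrates Cd47, Ccl2, Ccl7, Ccl8 and Cx3cl1, the CD47 receptor Sirpa, and Pgpep1, whose enzyme removes pyroglutamate. Without the filter, 0 were higher and 4 lower in tumour cells than in lymph node, beside 15.1% and 21.7% of all genes tested. These shares too are not matched for depth, and no excess is read from the counts of this list. In bone marrow 2 were higher and 3 lower than in lymph node, beside 14.6% and 17.1% of all genes. In spleen 2 were higher and 2 lower than in lymph node, beside 6.96% and 6.26% of all genes. In bone marrow minus spleen 0 were called by edgeR, beside 15.3% of all genes. With DESeq2, 0 of the 5 with an adjusted p passed, with Cd47 and Sirpa taken from the fit with the filter and the others without it. At an unadjusted edgeR p under 0.05 without the filter there was 1, Sirpa (p = 0.0344). Cd47 and Sirpa passed the filter. Cd47 had 0, 7.27 and 18.5 CPM in the lowest, median and highest tumour libraries, against 7.17, 23.6 and 83.1 CPM in lymph node (log2 fold change -1.89, SE 0.38, adjusted p = 1.2e-05). It was higher in bone marrow than in lymph node by a log2 fold change of 1.35 (adjusted p = 2.1e-05) and higher in spleen by 1.17 (adjusted p = 8.4e-04). Sirpa was higher in bone marrow than in lymph node by a log2 fold change of 1.80 (adjusted p = 1.9e-09) and higher in spleen by 1.15 (adjusted p = 1.9e-04). Qpct had 5 counts in all 48 libraries, too few to compare. Ccl8 had 0 counts in tumour cells, 0 in bone marrow, 1 in spleen and 65 in lymph node. Cx3cl1 had 0 counts in tumour cells, 1 in bone marrow, 2 in spleen and 22 in lymph node. Ccl2 had 0 counts in tumour cells and bone marrow, 1 in spleen and 9 in lymph node. Of Cx3cl1, the lower level in spleen was called without the filter (adjusted p = 0.0395), but not with DESeq2 (adjusted p = 0.114) nor in a fit of the 2 tissues alone (adjusted p = 0.0730).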

How the data were processed

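Per the labels' protocols, polyA RNA was made into TruSeq Stranded mRNA libraries and sequenced as paired 50 bp reads. The submitters' processing notes name HISAT2, edgeR, GRCm38 and mm10. Sources used here do not name the counter, its strand setting or the annotation. The deposited table holds raw read counts per gene, and 98.95% of its identifiers have identical coordinates in GENCODE M21. The authors' deposited tumour table holds log2 fold changes, mean log2 CPM, an F statistic (a score), and p-values with adjusted p-values, per the file headers.

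Column headers were matched to tissues only, so 4 of 6 planned comparisons could be made, and those of genotype and of tumour-bearing against baseline lymph node were not run. CPM were computed from the deposited counts. edgeR 4.0.16 (TMM, filterByExpr, quasi-likelihood test, Benjamini-Hochberg adjustment, adjusted p below 0.05) in R 4.3.3 was fitted on 48 libraries, with DESeq2 1.42.0 as an alternative. The edgeR fit with the filter was tested on simulated counts, for bone marrow minus spleen only. The fit without the filter was not tested in this way. The default filter (minimum count 10) kept 1 member, so 7 are reported from the planned fit without it. Filters at minimum counts of 5 and 2 were added after the data were seen, and so were the fit without the shallowest library, the Pearson dispersion, the sequence searches and the marking of CG, which replaced motifs that had no match. Totals of 54117 to 637985 counts limit precision, and with 0.49 to 1.11 CPM as the limit that 3 counts over a tissue's libraries allow, low genes rest on single reads. Named genes were the 8 members, the 5 most and least like Qpctl and Fbxo46 (1 of them is not reported here), the 3 largest changes per comparison within 300 kb and 8 pathway genes. Members and lists were chosen with earlier results of these data known.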

Additional observations from a re-analysis of the deposited data

Results flagged for a closer look

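In bone marrow and spleen, 16 sets of 8 values (8 genes in 2 tissues) were checked for a library far from the others, and 3 were flagged because their highest library lay apart from the next. The rule is set to flag about 1 in 20 sets of normally distributed values, a rate that does not hold for low counts with zeros and ties. A set with a single library above 0, such as Six5 in bone marrow, is always flagged. The number flagged is therefore not read against that rate. Dmpk in bone marrow had a highest library at 13.2 CPM, with the next at 6.20 CPM, each resting on 3 counts. Dmwd in spleen had a highest library at 16.1 CPM, on 4 counts, with the next at 4.93 CPM. Six5 in bone marrow had 1 library at 4.13 CPM, on 2 counts, and 0 in the other 7.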

How the results depend on the processing

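Of 175 alternative values for members, 164 kept direction and side of the threshold and 0 reversed. Of the others, 6 were Fbxo46 in tumour cells minus lymph node, which gained the call under RLE scaling, DESeq2, no filter, minimum counts of 5 (adjusted p = 0.00669) and 2 (adjusted p = 0.00469), and without the shallowest library. 2 were Qpctl there (adjusted p = 0.0457 and 0.0430 at minimum counts of 5 and 2, against 0.0903 without a filter), 1 was Dmpk there with DESeq2, and 2 were Eml2 in bone marrow minus spleen, which lost its call. The cause was not tested. 4 filters were run in all, on 5504, 8861, 13176 and 26748 genes, with 1, 5, 6 and 8 members tested. Called genes in bone marrow minus spleen numbered 2162, against 3807 at a minimum count of 2 and 4088 without a filter. In bone marrow minus lymph node they numbered 3682, against 7132 and 8475, and in tumour cells minus lymph node 4143, against 7978 and 9829. More genes entered the fits under those settings, and the part of this in the higher numbers was not tested. In tumour cells minus lymph node the split was 2181 higher and 1962 lower with the filter and 4026 and 5803 without it. The median log2 fold change of all genes was 0.12 in bone marrow minus lymph node with the filter and -0.08 without it. The shares of genes less dispersed than Fbxo46 depend on the measure, most in bone marrow (38.99% by SD, 76.4% by dispersion). No paired analysis was possible because the column headers carry no mouse number that matches a title. Depth limits Six5, Gipr and Qpct most, at 22, 43 and 5 counts in all.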

Other observations

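The 12 tumour libraries had Fbxo46 at 131, 115, 112, 111, 100, 80.2, 41.9, 33.5, 27.5, 20.2, 19.001 and 4.93 CPM, sorted by value. On the log2(CPM + 1) scale the widest gap between neighbouring values was 1.75, between the lowest library (1 count) and the other 11. That gap rests on a single count and does not describe the rest of the spread. Ranks 6 and 7 in this order, at 80.2 and 41.9 CPM, also lay apart. The widest gaps of Fbxo46 in the other tissues were 0.33 in bone marrow (4 libraries above, 4 below), 0.45 in spleen (5 above, 3 below) and 0.45 in lymph node (12 above, 8 below). For Qpctl they were 0.44 in tumour cells (1 above, 11 below), 0.48 in bone marrow (4 above, 4 below), 0.66 in spleen (3 above, 5 below) and 0.36 in lymph node (3 above, 17 below). The headers give no genotype, so no library on either side of a gap was assigned to one.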
